A study of Homo sapiens with 16 samples.

Results

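LNCaP cells that received enzalutamide and 6 Gy of ionizing radiation were compared with LNCaP cells that received the vehicle alone. The members are the 4 libraries that the labels assign to these groups in the second batch of the series, of 16 libraries in all. LNCaP is an established human prostate cancer line that carries the androgen receptor. Cells were grown in DMEM:F12 with serum. Vehicle cells were kept in DMSO for 90 min. The combined group had 10 µM enzalutamide for 90 min and was irradiated with 6 Gy at 30 min, so that 60 min passed between irradiation and collection. Each group has 2 libraries, with the replicate numbers 3 and 4, and pairs of values below are given in that order. The same batch holds 2 libraries of cells given DMSO and 6 Gy and 2 of cells given enzalutamide without radiation, which are used here only where the combined treatment is set beside a single one. Batch 1, which compared irradiated with mock-treated LNCaP cells without drug, shares no library with the comparison. The labels do not say that replicates came from separate cultures, so the p-values measure the spread between these samples, which may be technical. One cell line was used.

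PRO-seq, the assay used, is a nuclear run-on method that labels RNA in engaged RNA polymerases, so a gene's count follows transcription at the time of collection and not the amount of mature mRNA. Enzalutamide blocks the androgen receptor, a transcription factor that drives secretory and metabolic genes in luminal prostate cells. Ionizing radiation breaks DNA. The break is sensed by kinases such as ATM, which stabilise p53, and p53 then activates genes of cell cycle arrest, of its own negative feedback, of cell death and of repair. Genes of mitosis are transcribed towards the end of the cell cycle and are held down in arrested cells through repressor complexes at their promoters.

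Total counts in the vehicle libraries were 16428667 and 19469608, and those of the combined treatment were 12356618 and 14138005. Replicates of a group differed by more than sampling noise, with a chi-square per degree of freedom of 5.55 in vehicle and 3.88 in the combined group. Luminal prostate markers summed to 2810 and 2550 CPM (counts scaled to a common library size) in vehicle and to 2310 and 2240 CPM after the combined treatment. KLK3 and KRT8 are among those 8 markers. The summed markers of basal epithelium, neuroendocrine cells, fibroblasts and blood cells did not exceed 18.5 CPM for any of the 4 lists in any batch 2 library, and the neuroendocrine marker CHGA was listed at 0 in all of them. CPM values are not scaled by gene length, so they are compared between libraries and not between genes.

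After the combined treatment p53 targets rose, mitotic genes fell, and part of the listed androgen receptor targets fell. Of 28651 genes tested with edgeR's quasi-likelihood test, 435 (1.52%) passed a Benjamini-Hochberg adjusted p of 0.05. Of these, 272 (0.949% of genes tested) were higher and 163 (0.569%) were lower than in vehicle. The median log2 fold change was 0.70 among the higher genes and -0.68 among the lower ones. A change of at least 2-fold was seen for 83 higher and 24 lower genes. In all 435 the vehicle and combined libraries did not overlap, which was also true of 53.5% of all genes tested. When the replicate number entered the model as a block, 3205 genes (11.2%) passed, with 1767 (6.17%) higher and 1438 (5.02%) lower, and these included all of the 435. Leaving out a library of either group left an arm with 1 library, assumed to vary like the others. The count was then 157 without vehicle replicate 3, 240 without vehicle replicate 4, 173 without combined replicate 3 and 171 without combined replicate 4. It rose to 1143 and 1139 when the first or the second library of enzalutamide alone was left out of the shared estimate of the spread.

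**Figure D1:**
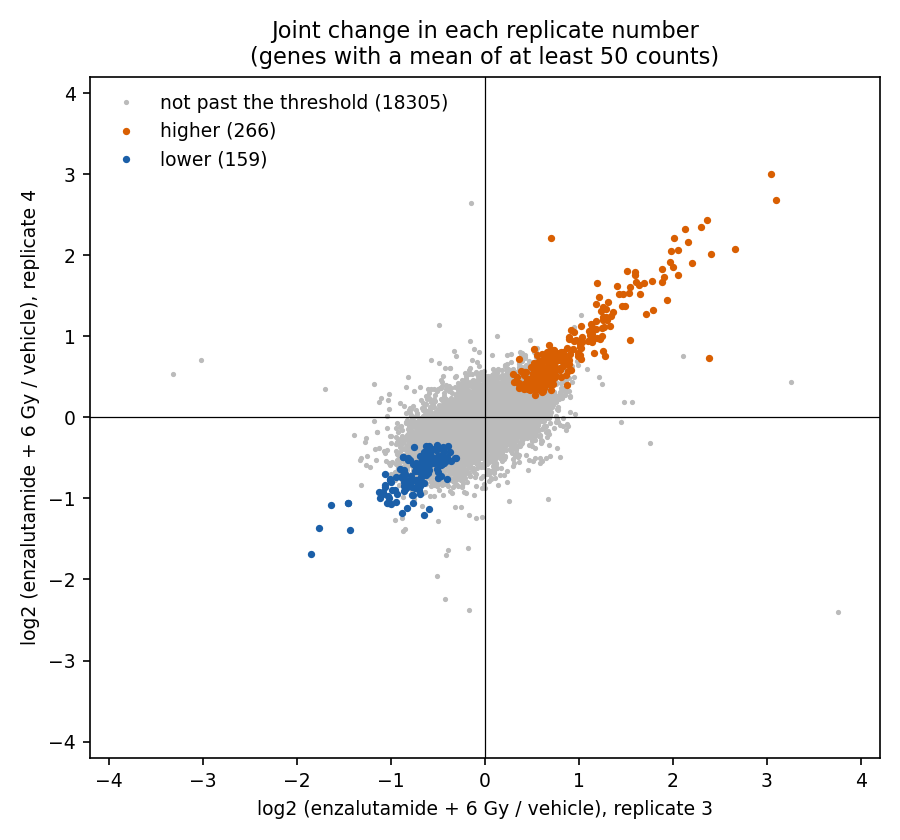
Log2 ratio of CPM (0.5 added) after enzalutamide plus 6 Gy to CPM in vehicle, in replicate 3 (x axis) and in replicate 4 (y axis), for each gene with 50 or more counts per library on average. Orange and blue points are the 266 higher and 159 lower genes past the threshold at this depth, which have the same sign in both replicate numbers, and grey points are the other 18305.

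Listed p53 targets were among the genes with the largest rises. Of 41 listed targets, all tested, 31 rose and none fell, beside 0.949% higher and 0.569% lower among all genes tested. The median log2 fold change was 1.30, beside -0.02 for all genes. The median was 1.25 in replicate 3 and 1.30 in replicate 4. Grouped by role, 8 of 10 arrest genes rose (median 1.48), 4 of 7 feedback genes (0.94), 10 of 12 cell death genes (1.18) and 9 of 12 genes of metabolism and repair (1.28). The list was written with earlier results of these data known, so its count describes the data and is not independent evidence.

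Among the arrest genes, CDKN1A encodes p21, the inhibitor of cyclin-dependent kinases, and lies at chr6:36676463-36687332 (RefSeq, GRCh38.p14). It stood at 36.6 and 44.7 CPM in vehicle and at 305 and 362 CPM after the combined treatment, a log2 fold change of 3.04 (SE 0.174, edgeR adjusted p 7.57e-07). This was an 8.21-fold rise, and the 2 groups were far apart. BTG2, an antiproliferative gene, went from 37.8 and 35.5 CPM to 187 and 182 CPM (log2 2.34, SE 0.0864, edgeR adjusted p 2.51e-08). GDF15, which encodes a secreted stress cytokine, went from 31.9 and 20.2 CPM to 91.4 and 72.0 CPM, with no overlap but with a wider spread than BTG2. SESN2, a stress-induced inhibitor of mTORC1 signalling, rose by 1.93 on the log2 scale and GADD45A, which acts in arrest and repair, by 1.43. BTG1 (-0.29, edgeR adjusted p 0.397) did not pass, and with the replicate block it was lower (adjusted p 0.0101).

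Of the feedback genes, 4 of 7 rose. MDM2, the ubiquitin ligase that targets p53 for degradation, went from 151 and 155 CPM to 596 and 647 CPM (log2 2.02, SE 0.0965, edgeR adjusted p 2.42e-07). PPM1D, the phosphatase WIP1 that switches off damage signalling, rose by 1.32. RPS27L, a p53-induced ribosomal protein paralogue, stood at 43.4 and 46.1 CPM in vehicle and at 137 and 133 CPM after the combined treatment. CCNG2 (-0.24, adjusted p 0.632) passed with the replicate block only, as lower (adjusted p 0.024).

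Of the cell death genes, BBC3, which encodes the BCL-2 antagonist PUMA, went from 9.52 and 9.68 CPM to 51.1 and 54.4 CPM (log2 2.46, SE 0.122, edgeR adjusted p 2.42e-07). PHLDA3, an inhibitor of AKT, went from 32.9 and 28.4 CPM to 138 and 120 CPM. BAX, a pore-forming protein of the mitochondrial outer membrane, rose by 1.71, the death receptor gene FAS by 1.69 and the nuclease gene AEN by 1.68. TP53INP1, which promotes p53-dependent death and autophagy, rose by 1.28, less than BBC3.

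Among genes of metabolism and repair, FDXR, the mitochondrial ferredoxin reductase, had the second largest rise of the comparison among the named genes. It stood at 13.6 and 16.3 CPM in vehicle and at 120 and 107 CPM after the combined treatment (log2 2.92, SE 0.112, edgeR adjusted p 2.51e-08). DDB2, which recognises ultraviolet lesions for excision repair, went from 46.7 and 49.5 CPM to 216 and 187 CPM (log2 2.07). XPC, its partner in lesion recognition, rose by 1.25, the translesion polymerase gene POLH by 1.31, and SPATA18, a gene of mitochondrial quality control, by 2.20.

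**Figure D2:**
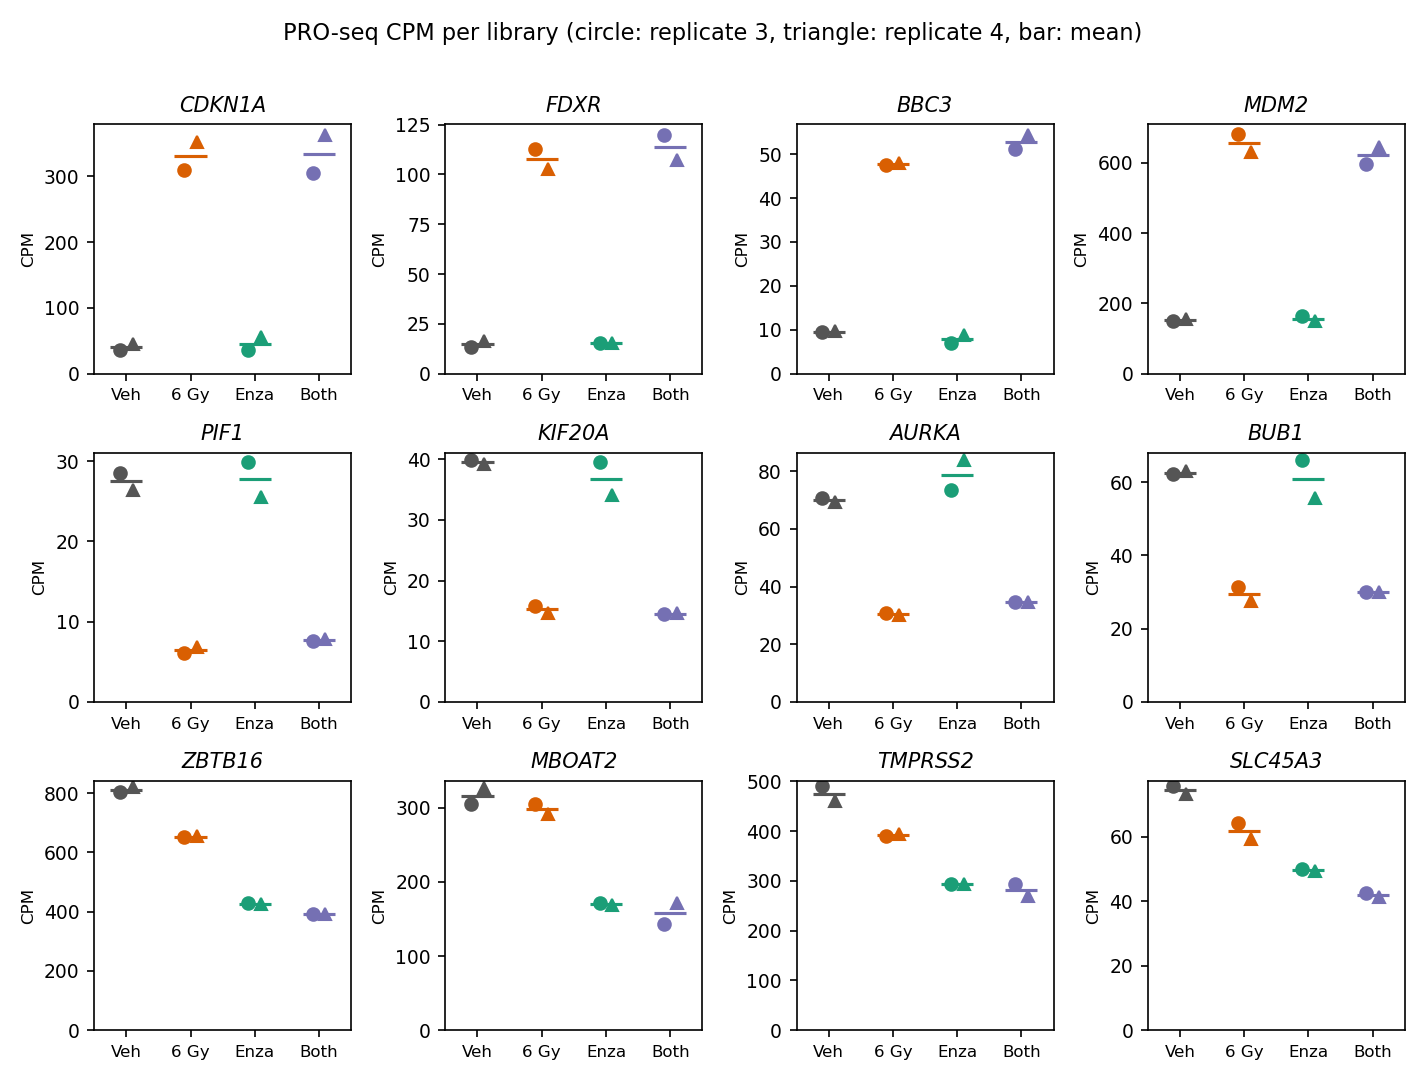
CPM in each batch 2 library for 12 genes: vehicle (Veh), 6 Gy with vehicle (6 Gy), enzalutamide (Enza) and both, with a circle for replicate 3, a triangle for replicate 4 and a bar at the mean, each axis starting at 0. CDKN1A, FDXR, BBC3 and MDM2 are high and PIF1, KIF20A, AURKA and BUB1 are low in both irradiated groups, and ZBTB16 and MBOAT2 are lowest in the groups with enzalutamide.

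Mitotic genes fell together. Among all genes tested 0.569% were lower and 0.949% higher, and with the replicate block 5.02% were lower. Of 53 listed mitotic genes, 51 were tested, 38 fell and 1 rose, with a median log2 fold change of -0.68. The counts were 11 of 16 for mitotic entry and its kinases, 15 of 21 for the spindle, kinesins and centromere, and 12 of 14 for anaphase and cytokinesis. In these bulk libraries, fewer cells late in the cycle and less transcription per cell cannot be told apart. The number that fell was 45 with the replicate block, 23 without vehicle replicate 3, 25 without vehicle replicate 4, 19 without combined replicate 3 and 23 without combined replicate 4.

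Several of these genes carry the sequence TTTGAA near the start of transcription, the core of the cell cycle homology region that is known to bind repressor complexes in genes of mitosis. The windows below are 56 bases each, read 5′ to 3′ on the strand of the gene from RefSeq (GRCh38.p14). They are shown because all 6 genes fell, and the capitals mark TTTGAA or, for TOP2A, its reverse complement. They were picked among promoters that hold the motif.
PIF1: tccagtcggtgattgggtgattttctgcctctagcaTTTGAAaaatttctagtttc
DLGAP5: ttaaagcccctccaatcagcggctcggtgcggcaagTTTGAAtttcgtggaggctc
CDCA3: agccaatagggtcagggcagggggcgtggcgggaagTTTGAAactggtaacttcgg
KIF23: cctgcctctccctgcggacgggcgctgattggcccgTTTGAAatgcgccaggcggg
PLK1: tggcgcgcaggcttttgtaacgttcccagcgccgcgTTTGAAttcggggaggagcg
TOP2A: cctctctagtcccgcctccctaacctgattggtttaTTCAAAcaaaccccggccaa
The windows lie at chr15:64825648-64825703 (PIF1), chr14:55191563-55191618 (DLGAP5), chr12:6851270-6851325 (CDCA3), chr15:69414258-69414313 (KIF23), chr16:23678824-23678879 (PLK1) and chr17:40418028-40418083 (TOP2A). The first base of the motif, counted from the first RefSeq start, is at -20 in PIF1, 3 in DLGAP5, -3 in CDCA3, -55 in KIF23, -29 in PLK1 and -151 in TOP2A. The windows of PIF1, DLGAP5, CDCA3, KIF23 and TOP2A also hold CCAAT or its reverse complement ATTGG.

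The fall of PIF1, which encodes a DNA helicase, was the largest among the named genes. It stood at 28.5 and 26.5 CPM in vehicle and at 7.53 and 7.86 CPM after the combined treatment (log2 -1.83, SE 0.141, edgeR adjusted p 9.49e-06). KIF20A, a kinesin of cytokinesis, went from 39.8 and 39.2 CPM to 14.4 and 14.7 CPM (log2 -1.44, SE 0.118, edgeR adjusted p 1.65e-05). The 2 libraries of each group lay close to each other for both genes. DLGAP5, a spindle assembly protein, fell from 59.8 and 54.9 CPM to 27.3 CPM in both libraries (log2 -1.07).

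Of the kinases, AURKA, which matures centrosomes, went from 70.6 and 69.4 CPM to 34.5 CPM in both libraries (log2 -1.02, SE 0.0943, edgeR adjusted p 5.18e-05). BUB1, a spindle checkpoint kinase, went from 62.2 and 62.9 CPM to 30.0 CPM in both (log2 -1.06). PLK1, the kinase of mitotic entry and exit, went from 59.3 and 60.6 CPM to 36.5 and 31.1 CPM (log2 -0.83). The cyclin gene CCNB1 fell by 0.80, its kinase partner CDK1 by 0.62 and the checkpoint kinase gene TTK by 0.97. CDK1 did not pass without vehicle replicate 4 (log2 -0.55) or combined replicate 3 (-0.51), and TTK not without the latter (-0.94). The gene that rose, PKMYT1, encodes a kinase that inhibits CDK1. It went from 39.2 and 45.4 CPM to 62.9 and 60.8 CPM (log2 0.55, edgeR adjusted p 0.0269). PKMYT1 did not pass without vehicle replicate 3 (log2 0.44), combined replicate 3 (0.53) or combined replicate 4 (0.56).

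In the anaphase group, the securin gene PTTG1 fell by 1.05, the activator of the anaphase-promoting complex CDC20 by 0.77 and CDCA3, a trigger of mitotic entry, by 1.01. TOP2A, the topoisomerase that separates sister chromatids, went from 134 and 125 CPM to 66.9 and 59.0 CPM (log2 -1.04, SE 0.109, edgeR adjusted p 0.000173). Of the spindle group, KIF23, a kinesin of the central spindle, and the kinetochore motor gene CENPE fell by 0.90 and 0.97. Without combined replicate 3, CDC20 (log2 -0.68) and KIF23 (-0.85) did not pass.

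Promoters could be read for 15407 of the genes tested, of which 294 had passed, over 250 bases before and 50 after the first RefSeq start. Both strands were searched. TTTGAA was present in 53 of 112 lower genes (47.3%), in 11 of 182 higher genes (6.04%) and in 11.6% of all 15407. It was present in 29 of the 42 listed mitotic genes tested (69%) and in 22 of the 31 that fell (71%). Among the lower genes outside the mitotic lists it was present in 31 of 81 (38.3%). CCAAT was present in 58.9% of lower, 35.7% of higher and 36% of all promoters, and both motifs together in 35.7%, 2.2% and 4.73%. With any RefSeq start in place of the first, TTTGAA was present in 52.7%, 11% and 15.3%. The p53 half-site was present in 7.14% of higher genes and in 5.89% of all. AGAACA, which the androgen receptor can bind, was present in 6.25% of lower genes and in 11% of all. Matches to different motifs can share bases and were counted separately. The shares were not tested, a match is not a bound site, and both factors are also known to act at enhancers outside such windows.

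**Figure D3:**
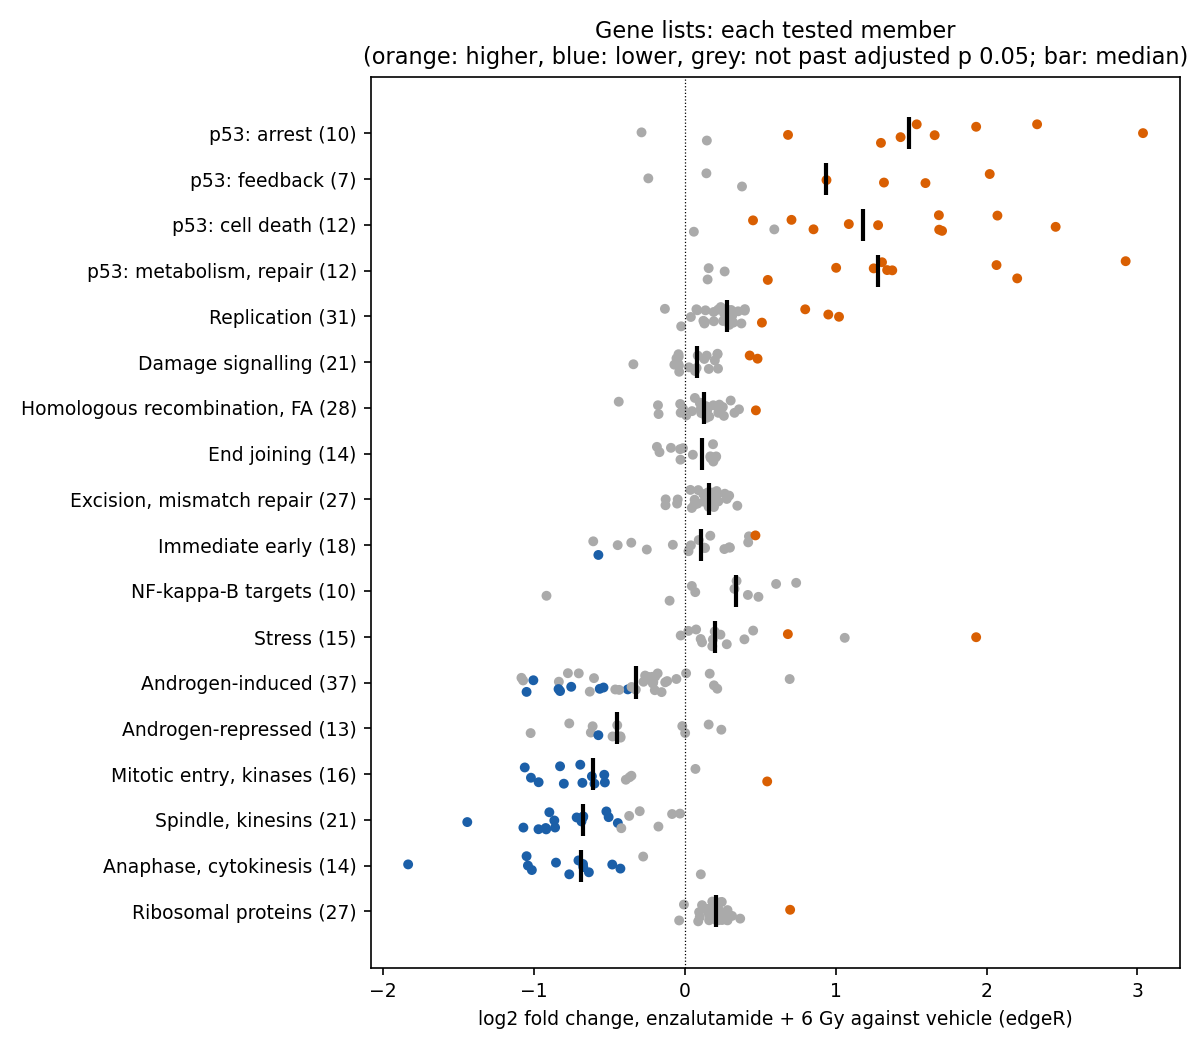
Log2 fold change between enzalutamide plus 6 Gy and vehicle (x axis) for each tested member of the gene lists shown (rows, with the number tested), with a bar at the list's median. Orange and blue points passed an adjusted p of 0.05 as higher or lower and grey points did not. The 4 p53 lists lie to the right, the 3 mitotic lists to the left, and the androgen receptor lists hold both blue and grey points.

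Androgen receptor targets fell in part. Of 39 listed induced genes, 37 were tested, 8 fell and none rose, with a median log2 fold change of -0.33. Among all genes tested 0.569% were lower and 0.949% higher. The replicate block gave 18 that fell, beside 5.02% of all genes tested. Without combined replicate 3 the number was 5, and it was 13 without either library of enzalutamide alone. Among the 8 genes were ZBTB16 (-1.05), MBOAT2 (-1.0), MAOA (-0.84), SLC45A3 (-0.83), TMPRSS2 (-0.75), ABCC4 (-0.56) and ELL2 (-0.38).

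ZBTB16, a transcriptional repressor gene induced by steroid receptors, stood at 802 and 820 CPM in vehicle and at 391 and 393 CPM after the combined treatment (SE 0.0876, edgeR adjusted p 1.99e-05). It stood at 650 and 655 CPM after 6 Gy alone and at 429 and 425 CPM after enzalutamide alone, so that the groups with the drug were the lowest. MBOAT2, a lysophospholipid acyltransferase gene, went from 305 and 327 CPM to 143 and 172 CPM (SE 0.0992, edgeR adjusted p 9.79e-05). TMPRSS2, the protease gene that is often fused to ETS genes in prostate cancer, went from 490 and 461 CPM to 294 and 270 CPM (SE 0.0883, edgeR adjusted p 0.000449). SLC45A3, which encodes the prostate antigen prostein, went from 75.6 and 73.2 CPM to 42.5 and 41.4 CPM. ELL2, an elongation factor gene, was close to the threshold (edgeR adjusted p 0.0487) and lost its call when any library of vehicle (adjusted p 0.289 and 0.217), of the combined group (0.41 and 0.214) or of 6 Gy alone (0.0773 and 0.0731) was left out, and with RLE size factors (0.06). ABCC4, a cyclic nucleotide exporter gene, lost its call without vehicle replicate 4 (0.134) and without combined replicate 3 (0.24).

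The 2 kallikrein genes used as clinical readouts had fold changes of the same size but a wider spread. KLK2 stood at 251 and 176 CPM in vehicle and at 137 and 66.1 CPM after the combined treatment (log2 -1.07, SE 0.346, edgeR adjusted p 0.147). Replicate 4 was lower than replicate 3 in each of the 4 groups of batch 2. KLK2 passed with the replicate block (log2 -1.14, adjusted p 3.1e-09). KLK3, which encodes prostate-specific antigen, stood at 17.1 and 13.5 CPM in vehicle and at 9.07 and 5.43 CPM after the combined treatment (log2 -1.08, SE 0.314, edgeR adjusted p 0.115, and 5.33e-05 with the block). FKBP5, a chaperone gene induced by steroid receptors, stood at 147 and 163 CPM and at 135 and 132 CPM and passed in neither fit (log2 -0.22, edgeR adjusted p 0.225, and 0.0587 with the block).

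Of genes known to be repressed by the androgen receptor none passed as higher. Of 14 listed, 13 were tested, none was higher and 1, MYC, was lower, with a median log2 fold change of -0.45. Among all genes tested 0.949% were higher and 0.569% lower, and the blocked fit gave 5.02% lower. In the blocked fit 7 were lower, and 5 without either library of enzalutamide alone, 6 with no filter on low counts, 5 with only the vehicle and combined libraries in the fit, 3 by DESeq2 and 2 with total counts as the scale, with a filter at a mean of 50 counts or in a robust fit. None was lower when any vehicle or combined library was left out. MYC, which encodes a growth-promoting transcription factor, went from 288 and 271 CPM to 202 and 174 CPM (log2 -0.57, SE 0.124, edgeR adjusted p 0.039). MYC did not pass without either vehicle library (log2 -0.53 and -0.61) or either combined library (-0.68 and -0.48).

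Replication genes rose in part. Of 31 listed, 4 rose and none fell, with a median log2 fold change of 0.28. Among all genes tested 0.949% were higher and 0.569% lower. With the replicate block 17 rose, beside 6.17% of all genes tested. TYMS, the thymidylate synthase gene, went from 41.3 and 41.9 CPM to 85.2 and 83.8 CPM (log2 1.02, SE 0.0997, edgeR adjusted p 8.88e-05). LIG1, the ligase gene of Okazaki fragments, went from 42.2 and 44.7 CPM to 85.7 and 82.4 CPM (log2 0.95, SE 0.0859, edgeR adjusted p 4.29e-05). PCNA, the sliding clamp gene and a known p53 target, went from 44.4 and 46.7 CPM to 77.0 and 81.6 CPM (log2 0.80, SE 0.103, edgeR adjusted p 0.00104), and the licensing factor gene CDT1 rose by 0.51. CDT1 did not pass without vehicle replicate 3 (0.35), either combined library or either library of 6 Gy alone (0.51 in each of these 4 fits), nor with total counts as the scale (adjusted p 0.0567) or a filter at a mean of 50 counts (0.0576). Without either library of enzalutamide alone 7 of the 31 rose.

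Of 90 listed DNA repair genes, 3 rose and none fell, beside 0.949% higher and 0.569% lower among all genes tested, and the median log2 fold change was 0.13. The genes were the checkpoint mediator CLSPN (0.48), the checkpoint clamp subunit RAD9A (0.43) and the homologous recombination gene RAD51C (0.47), with edgeR adjusted p-values from 0.0225 to 0.0416. CLSPN stood at 63.6 and 67.5 CPM in vehicle and at 89.3 and 93.8 CPM after the combined treatment. None of the 3 passed when either library of vehicle or of the combined group was left out, with log2 values from 0.44 to 0.53 for CLSPN, 0.37 to 0.50 for RAD9A and 0.39 to 0.56 for RAD51C. RAD9A and RAD51C also did not pass without either library of 6 Gy alone (adjusted p 0.0505 to 0.0731), and RAD9A not with total counts as the scale (0.0654) or a filter at a mean of 50 counts (0.055). None of 14 end joining genes and none of 27 excision and mismatch repair genes passed. For lists this small a count of 0 is near the 1.52% of all genes tested. Of all genes tested, the block gave 6.17% higher and 5.02% lower. Of the 90 repair genes it gave 11 higher and 2 lower. One of the latter was BARD1, the partner of BRCA1, at 244 and 245 CPM in vehicle and 179 and 182 CPM after the combined treatment (log2 -0.44, edgeR adjusted p 0.0603, and 0.000601 with the block), and it also passed by DESeq2 (0.0141) and with total counts as the scale (0.0268).

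The other lists held from none to 2 genes past the threshold each, beside 1.52% of all genes tested. For lists this small a count of 0 is near that share. With the replicate block 6.17% of all genes tested were higher and 5.02% lower. Of 18 immediate early genes tested, IER2 was higher (log2 0.47, edgeR adjusted p 0.0389) and MYC lower. FOS (-0.36, adjusted p 0.591) and EGR1 (0.43, adjusted p 0.381) did not pass. With the replicate block 4 of the 18 were higher and 2 lower. IER2 did not pass without vehicle replicate 3 (0.35), combined replicate 3 (0.54), combined replicate 4 (0.39) or either library of 6 Gy alone (0.47 and 0.46), nor with total counts as the scale (adjusted p 0.0535) or a filter at a mean of 50 counts (0.0579). None of 10 tested early targets of NF-kappa-B passed (median 0.34), and 4 were higher with the replicate block, among them RELB (0.74, adjusted p 0.112 without and 0.0145 with the block). Of 15 stress genes, SESN2 and DDIT4 were higher. With the block 4 were, among them CHAC1 (log2 1.06, edgeR adjusted p 0.0879 without and 4.06e-05 with the block). DDIT4, an inhibitor of mTORC1 signalling, went from 80.3 and 83.9 CPM to 135 and 129 CPM (log2 0.68, edgeR adjusted p 0.000864). None of 16 interferon-stimulated genes (median -0.04), 6 APOBEC3 genes, 10 polyamine genes or 18 genes of RNA polymerase II and its pausing factors passed. Blocked by replicate, 3 of the last group were higher and the polyamine gene AMD1 was lower (-0.40, adjusted p 0.0885 without and 0.0022 with the block, and 0.019 by DESeq2). One of 17 sterol synthesis genes was higher, DHCR7 (0.44), which did not pass without either library of vehicle (0.37 and 0.52) or of the combined group (0.44 and 0.44). With the block 4 of the 17 sterol synthesis genes were higher. Of 27 ribosomal protein genes 1, RPS19, was higher, and 7 were higher with the block. RPS19 stood at 102 and 112 CPM in vehicle and at 170 and 178 CPM after the combined treatment (log2 0.70, edgeR adjusted p 0.000834).

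Genes outside these lists were also among the 8 largest rises and 8 largest falls, taken over genes that passed, had 50 or more counts on average and did not overlap between the groups. ABCB1, the drug efflux pump P-glycoprotein, went from 11.2 and 12.6 CPM in vehicle to 73.4 and 54.9 CPM (log2 2.42, SE 0.201, edgeR adjusted p 1.91e-05). After 6 Gy alone it stood at 105 and 160 CPM and after enzalutamide alone at 11.1 and 8.81 CPM. In batch 1 its log2 fold change after 6 Gy was 0.10 (adjusted p 0.931). The unnamed gene ENSG00000286886 went from 4.52 and 3.45 CPM to 21.4 and 19.2 CPM (log2 2.36, edgeR adjusted p 1.39e-05), with 0.08 in batch 1 (adjusted p 0.961). GAS6-AS1, an antisense transcript, went from 44.1 and 57.8 CPM to 237 and 235 CPM (log2 2.21) and ENSG00000224818 from 4.64 and 2.47 CPM to 20.2 and 13.3 CPM (log2 2.25).

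Among the falls, ENSG00000287530 stood at 8.37 and 8.34 CPM in vehicle and at 2.11 and 2.93 CPM after the combined treatment (log2 -1.72, edgeR adjusted p 0.000744). TM4SF1, a tetraspanin-like membrane protein, went from 8.13 and 6.74 CPM to 2.27 and 2.93 CPM (log2 -1.50, edgeR adjusted p 0.00874), the disintegrin family gene ADAM7 from 9.21 and 11.6 CPM to 4.78 and 4.86 CPM (log2 -1.11), and the potassium channel gene KCNC2 from 8.31 and 6.23 CPM to 3.81 and 2.93 CPM (log2 -1.11). Leaving out combined replicate 3 or 4 ended the calls of TM4SF1 (log2 -1.33 and -1.72), ADAM7 (-1.09 and -1.14) and KCNC2 (-1.30 and -0.94). Those of TM4SF1 (-1.37) and KCNC2 (-0.89) also ended without vehicle replicate 3, and that of ADAM7 (-0.93) without vehicle replicate 4. Another pair of identifiers among the largest falls, ENSG00000281000 and ENSG00000277947, belongs to copies of the small nucleolar RNA SNORD3D with the same counts, and cannot be assigned to one copy.

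Without a stated use of strand, reads of overlapping genes cannot be told apart. In RefSeq, CDKN1A overlaps DINOL, MDM2 overlaps CPM (a carboxypeptidase gene), ABCB1 overlaps RUNDC3B, GAS6-AS1 overlaps GAS6, KIF20A overlaps CDC23, PLK1 overlaps ERN2, TYMS overlaps ENOSF1, PKMYT1 overlaps PAQR4 and TP53INP1 overlaps NDUFAF6. Values of these genes carry that uncertainty.

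The combined treatment was then set beside each single one. These comparisons share libraries, so the values are given side by side. The difference between the combined effect and the sum of the 2 single effects, on the log2 scale, was tested as an interaction. No gene (0%) passed by edgeR (343 at an unadjusted p under 0.05) and none by DESeq2, and 1 (0.00349%) passed with the replicate block. Leaving out 1 library gave 0 to 4 genes, with 4 without enzalutamide replicate 4, 2 without 6 Gy replicate 3, 1 each without vehicle replicate 3, enzalutamide replicate 3 and combined replicate 3, and 0 otherwise. For CDKN1A the combined log2 fold change was 3.04, with 3.02 for 6 Gy alone and 0.16 for enzalutamide alone, and the interaction was -0.14 (95% interval -0.65 to 0.36). For AURKA the values were -1.02, -1.19 and 0.16, with an interaction of 0.01 (-0.28 to 0.30). For ZBTB16 they were -1.05, -0.31 and -0.93, with an interaction of 0.19 (-0.08 to 0.46).

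The intervals of the interaction show how large a departure these data leave possible. They lay wholly within 1.5-fold in either direction for 46 of 51 mitotic genes, 25 of 41 p53 targets and 25 of 37 genes induced by the androgen receptor, beside 40.8% of all genes tested. For the remaining genes a departure of that size is not excluded by the interval. BBC3 had an interval above 0 (0.45, 0.06 to 0.82) that did not pass after adjustment over all genes.

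RBMS1, an RNA-binding protein gene, had the smallest interaction p and was the one that passed with the block (log2 2.67, adjusted p 0.00459). It stood at 30.4 and 146 CPM in vehicle, 60.9 and 65.6 CPM after 6 Gy, 33.1 and 32.0 CPM after enzalutamide and 133 and 246 CPM after both. Vehicle replicate 4 thus lay above both libraries of each single treatment, and vehicle replicate 3 below both libraries of 6 Gy alone. CDH17, a cadherin gene, was also among the 5 smallest interaction p-values, with 81.2 CPM in combined replicate 3 and 4.57 CPM in combined replicate 4. Its combined log2 fold change of 1.40 (edgeR adjusted p 0.4) became -1.79 without combined replicate 3. The other 3 of the 5 were the 5S ribosomal RNA copies RNA5S8 and RNA5S11 and the U1 pseudogene RNU1-42P, whose reads can be shared with near-identical copies.

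Against 6 Gy alone, 3 genes (0.0105%) passed, all lower with the drug added: MBOAT2 (log2 -0.92, SE 0.0993), ZBTB16 (-0.73, SE 0.0873) and ENSG00000286886 (-1.35, SE 0.159). The edgeR adjusted p was 0.0133 for all 3. At an unadjusted p under 0.05 there were 859. In the blocked fit 55 (0.192%) passed, 47 of them lower (0.164%). SLC45A3 (-0.56), ZBTB10 (-0.58), a zinc finger gene, TMPRSS2 (-0.47) and KLK2 (-0.82) passed only with the block (adjusted p 0.000605, 0.000217, 0.00285 and 2.32e-05). ABCB1 was lower than after 6 Gy alone by 1.05 on the log2 scale (95% interval -1.43 to -0.66, adjusted p 0.273, and 0.000138 with the block). No p53 target and no mitotic gene of the lists passed against 6 Gy alone. For lists this small a count of 0 is near the 0.0105% of all genes tested. The difference was 0.01 for CDKN1A (95% interval -0.33 to 0.35), -0.08 for MDM2 (-0.28 to 0.12), -0.07 for KIF20A (-0.34 to 0.20) and 0.17 for AURKA (-0.04 to 0.39). These intervals give the range of differences the data allow and do not show equality. All 3 calls were lost without combined replicate 3 (adjusted p 0.15 to 0.214) and without 6 Gy replicate 4 (0.054 to 0.191). Without combined replicate 4 ZBTB16 (0.11) and ENSG00000286886 (0.189) were lost, and without 6 Gy replicate 3 ZBTB16 (0.0683) and MBOAT2 (0.0627). ENSG00000286886 was also lost with total counts as the scale (0.0504) and with a filter at a mean of 50 counts (0.0759).

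Against enzalutamide alone, 263 genes (0.918%) passed, 179 higher (0.625%) and 84 lower (0.293%), and 951 (3.32%) passed with the replicate block. Of the genes induced by the androgen receptor none of 37 passed, and for a list this small 0 is near the 0.918% of all genes. Of the p53 list 30 of 41 and of the mitotic list 37 of 51 passed. The count was 162 without combined replicate 3, 139 without combined replicate 4 and 434 without enzalutamide replicate 4. ZBTB16 differed from enzalutamide alone by -0.12 (edgeR adjusted p 0.705), MBOAT2 by -0.11 (0.769) and TMPRSS2 by -0.06 (0.88), while CDKN1A differed by 2.88 and PIF1 by -1.85 (edgeR adjusted p 1.13e-06 and 9.46e-06).

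Batch 1 gives radiation values from other libraries, without drug. Of the 272 genes higher after the combined treatment, 271 were tested there, 267 lay above 0 and 200 passed as higher, beside 2% of the 25889 genes tested. These 200 were also part of 519 higher genes in batch 1. Of the 163 lower genes, 161 were tested, 148 lay below 0 and 74 passed as lower, beside 0.819%, out of 212 lower genes in batch 1. None passed in the opposite direction. Among the lists, 32 of 41 p53 targets were higher and 41 of 51 mitotic genes were lower in batch 1, and 1 of 37 genes induced by the androgen receptor was lower. CDKN1A changed by 3.65 on the log2 scale, MDM2 by 3.12, AURKA by -1.76 and PIF1 by -2.44. ZBTB16 (-0.26, adjusted p 0.578), MBOAT2 (-0.08, 0.896) and TMPRSS2 (-0.30, 0.43) did not pass there by edgeR. The batch 1 count of 731 genes (2.82%) became 2332 (9.01%) with the replicate block and 1509 without mock replicate 2.

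The change after the combined treatment also followed the span of genes. Protein-coding genes that span under 10 kb in RefSeq had a median log2 fold change of 0.13 (2922 genes) and those of 300 kb or more a median of -0.30 (762 genes), with 0.08, 0.01 and -0.06 for the classes between. The longest class held 14 lower genes and no higher gene. Its median was -0.31 in replicate 3 and -0.24 in replicate 4, and the shortest class had 0.18 and 0.09. The longest class had a median of -0.19 after 6 Gy alone and -0.07 after enzalutamide alone in the same batch, which share the vehicle libraries. In batch 1 the medians of the shortest and longest class were -0.03 and 0.01. Genes are not independent replicates, the medians were not tested, and the part of RNA quality or of the counted interval in the pattern was not tested.

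**Figure D4:**
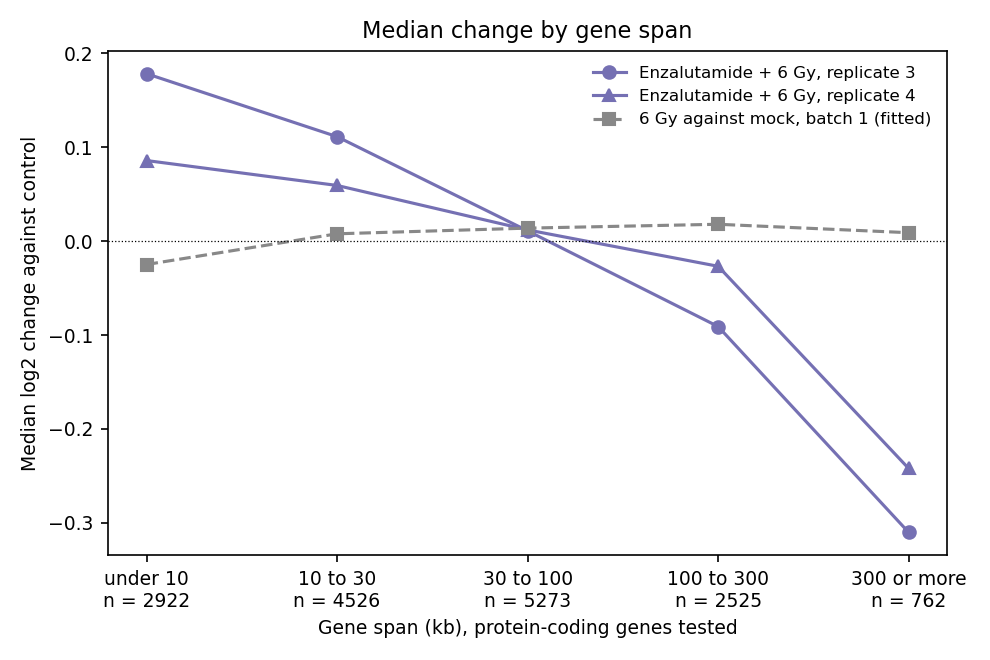
Median log2 fold change (y axis) of protein-coding genes in 5 classes of gene span in kb (x axis, with the number of genes). Purple lines are enzalutamide plus 6 Gy against vehicle in replicate 3 (circles) and replicate 4 (triangles), which fall from above 0 to -0.31 and -0.24, and the grey dashed line is 6 Gy against mock in batch 1, which stays between -0.03 and 0.02.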

How the data were processed

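PRO-seq counts were taken from the table of raw read counts per Ensembl gene that the authors deposited for each batch (60605 identifiers, of which 60463 matched the gene name table). The values are whole numbers with differing totals. Per the submitters' processing notes the tools included cutadapt 1.8.1, Bowtie2 2.4.4 and SAMtools 1.9 and the build was hg38. The counting tool, the annotation release, the use of strand and any removal of duplicates are not given in the sources used here. The 8 libraries of batch 2 held 10494563 to 19905824 counts each (median 14669929).

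All 8 batch 2 libraries were fitted in 1 model of group means with edgeR 4.0.16 in R 4.3.3 (filterByExpr defaults, TMM factors, glmQLFit, glmQLFTest), so that the 4 groups share an estimate of the spread. P-values are two-sided and Benjamini-Hochberg adjusted over all genes of a comparison, with a threshold of 0.05. Each SE is the absolute fold change over the root of its F value. In batch 1, libraries t1 and t2 of a replicate were summed. Replicate numbers are shared between groups in the labels. The replicate differences of all 6 pairs of groups were positively correlated across 18730 genes (0.247 to 0.44, with 0.317 for vehicle and the combined group). Calls, SEs and intervals come from the fit without the replicate number unless the block or another alternative is named, so they do not use this pairing. The fit with the replicate block, which does, is given beside it for many of the calls and counts that it changes. On simulated counts for the combined comparison, 200 genes changed 2-fold among 28117 were recovered to 90.5% with dispersions on the fitted trend (4.23% false calls), and among 28103 to 84.5% with gene-wise dispersions (6.11%). At 1.5-fold the values were 53.5% among 28052 genes (6.14%) and 42% among 28140 (12.5%). The changed genes were drawn only from those with an expected mean of at least 50 counts per library. Recovery of genes with fewer counts was not simulated, and neither was a shared replicate effect.

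The members, the gene lists, the motifs and the alternatives were chosen with earlier results of these data known. Named genes were the 8 largest rises and falls that passed, had 50 or more counts on average and showed no overlap between groups, a fixed panel, the 2 members of each list with the smallest p in each direction (mean of at least 10 counts), and the 5 smallest p-values of the interaction and of the comparison with 6 Gy alone. Further list members are named after their values were seen, to account for a list's count. Gene positions, spans and promoters are RefSeq's, GRCh38.p14. DESeq2 1.42.0 and other filters, scalings and left-out libraries were alternatives. Some genes of the panel and the lists count in the totals but their own values are not reported here.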

Additional observations from a re-analysis of the deposited data

How the results depend on the processing

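Every one of the 435 genes kept its direction in each alternative fit in which it was tested (425 were tested with a mean of at least 50 counts). With the replicate block the counts were 3205 (1767 higher, 1438 lower) for the combined treatment against vehicle, 1 for the interaction, 55 against 6 Gy alone, 951 against enzalutamide alone and 2332 in batch 1. With no filter on low counts they were 1278 (586 higher, 692 lower), 32, 64, 556 and 1157. With only the vehicle and combined libraries in the fit, 1091 genes passed (562 higher, 529 lower). DESeq2 gave 7 genes against 6 Gy alone, and 579 against vehicle, of which 407 were among the 435. Other scalings gave 445 and 399 genes and shifted the median of all genes by under 0.1. A robust fit, chosen after seeing the data, gave 554.

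Leaving out 1 library at a time gave 157 to 1143 genes against vehicle (100 to 616 higher, 40 to 528 lower), 0 to 4 for the interaction, 1 to 6 against 6 Gy alone, 139 to 434 against enzalutamide alone and 587 to 1509 in batch 1. Single named genes ranged from -1.99 to 3.19 in these fits. CDH17 reversed to -1.79 without combined replicate 3, and CCNG2 to 0.07 without vehicle replicate 3 and 0.01 without combined replicate 4. The cause of these changes was not tested, other than that fewer libraries leave fewer degrees of freedom. With 2 libraries per group, and replicates that differ by more than sampling noise, changes of 1.5-fold or less are often missed. The simulated counts show this for 1.5-fold changes in genes with a mean of at least 50 counts.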
